A study of Mus musculus with 14 samples.

Results

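The genes described here encode the T cell receptor complex and a few partners: the CD3 chains Cd3e, Cd3d and Cd3g, the zeta chain Cd247, the coreceptors Cd4 and Cd8a, the kinases Lck and Zap70, the costimulatory receptor Cd28 and the residency integrin Itgae. They were taken by gene name from a list of 10 symbols. All 10 were found among the 54532 genes of the count table, and all 10 were among the 15915 genes that passed the filter on low counts. The list was drawn up with values of these libraries known, so the levels, fold changes and p-values below describe where these genes stood among all genes and are not independent evidence of a change.

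RNA was sequenced from sorted cells of a salivary gland, the submandibular, of adult TertCreERT2/+ Rosa26LSL-tdTomato/+ mice. Every group came from this strain, in which Cre recombinase fused to a tamoxifen-responsive receptor is made from the Tert locus and switches on the reporter tdTomato. Cells without the dye DAPI and with the epithelial surface protein EpCAM were sorted into tdTomato-positive (Tert+) and tdTomato-negative (Tert-) fractions. The 4 groups were Tert+ without radiation (no RT, n = 3), Tert- without radiation (n = 3), Tert+ after 15 Gy (RT, n = 4) and Tert- after 15 Gy (n = 4). The time from RT to sorting, the age beyond adult, the tamoxifen dosing and the number of animals per library are not given in the labels, so p-values measure the spread between libraries. A cell type field in the labels named the opposite fraction from the title in 14 of 14 libraries, and the titles, with which the description fields go, were used here.

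The T cell receptor recognises peptides held by major histocompatibility complex proteins, but its own chains have no signalling tail of use. The CD3 and zeta chains carry the tyrosine motifs that the kinase Lck phosphorylates and to which the kinase ZAP-70 then binds. CD4 and CD8 bring Lck to the receptor, and CD28 gives a second signal on binding CD80 or CD86. The integrin chain encoded by Itgae, known as CD103, pairs with the beta 7 chain and binds E-cadherin, which holds T cells in epithelia, salivary epithelium among them. Several of these genes are not exclusive to T cells: natural killer cells use Cd247, Lck and Zap70, and mouse dendritic cells can carry Cd4, Cd8a or Itgae.

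Total counts ran from 9220126 to 15943597 without RT and from 5520412 to 11642156 after RT, so the libraries after RT were on average shallower. The sort was for epithelial cells, yet markers of other cells were abundant. The 7 B cell markers summed to between 7284 and 12280 CPM per library (CPM, the usual per-megaread scale, on TMM-scaled totals), and the 10 epithelial markers to between 654.9 and 13660 CPM. All 9 T cell markers, the CD3 genes among them, were detected in each group, with sums of 462.7 to 715.9 CPM in Tert+ without RT, 337.7 to 645.5 in Tert- without RT, 261.7 to 546.4 in Tert+ after RT and 169.6 to 307.6 in Tert- after RT. Of that list Cd2, which mouse B cells also carry, had a mean of 234 CPM over the libraries. In bulk RNA, fewer T cells and less T cell RNA per cell cannot be told apart. The mean correlation of log2 CPM with the other libraries of the group was 0.896 to 0.918 in the other 3 groups and 0.875 to 0.888 in Tert+ after RT, lowest in replicates 4 and 3. Leaving out both moved no count of members called past 1.5 times.

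The 3 CD3 genes lie together on mouse chromosome 9 within 40056 bases (mm10). Cd3g (ENSMUSG00000002033, minus strand, 44969572 to 44980431) and Cd3d (ENSMUSG00000032094, plus strand, 44981786 to 44987339) point away from each other with 1354 bases between them, and Cd3e (ENSMUSG00000032093, minus strand, 44998740 to 45009627) lies beyond Cd3d. The windows around their start sites are printed because these genes moved together across the libraries. Each runs 5′ to 3′ on the gene's strand, from 250 bases before to 50 bases after the start, from RefSeq on GRCm38.p6. The windows are chr9:45009562-45009861 for Cd3e, chr9:44981536-44981835 for Cd3d and chr9:44980382-44980681 for Cd3g. Capitals mark the ETS core AGGAAG, the RUNX core TGTGGT and the TATA box TATAAA, read on both strands.

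Cd3e: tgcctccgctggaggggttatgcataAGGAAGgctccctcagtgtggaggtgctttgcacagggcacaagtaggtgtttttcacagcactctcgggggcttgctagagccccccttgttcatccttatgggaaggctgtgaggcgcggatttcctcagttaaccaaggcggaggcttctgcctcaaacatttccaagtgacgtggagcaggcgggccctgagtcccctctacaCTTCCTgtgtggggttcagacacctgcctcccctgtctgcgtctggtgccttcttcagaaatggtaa
Cd3d: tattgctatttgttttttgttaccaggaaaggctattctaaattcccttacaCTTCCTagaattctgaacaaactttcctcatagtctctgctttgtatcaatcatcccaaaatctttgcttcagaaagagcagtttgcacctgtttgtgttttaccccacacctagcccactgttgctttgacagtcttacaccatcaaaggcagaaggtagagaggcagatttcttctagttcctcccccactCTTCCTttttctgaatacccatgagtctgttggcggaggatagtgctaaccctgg
Cd3g: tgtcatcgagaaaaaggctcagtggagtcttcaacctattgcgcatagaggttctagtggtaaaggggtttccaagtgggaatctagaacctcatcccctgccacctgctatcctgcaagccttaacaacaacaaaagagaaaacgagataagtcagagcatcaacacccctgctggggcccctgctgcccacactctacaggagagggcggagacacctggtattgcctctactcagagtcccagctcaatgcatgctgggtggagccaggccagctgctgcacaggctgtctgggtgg

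The ETS core was present 2 times in the Cd3e window, 2 times in the Cd3d window and 0 times in the Cd3g window, and 35.4% of all 32851 RefSeq windows held it. The RUNX core and the TATA box had 0 matches in the 3 windows, against 16.8% and 13.6% of all windows. The E-box CANNTG, not capitalised, had 2, 1 and 4 matches in Cd3e, Cd3d and Cd3g, and 72.3% of all windows held at least 1. The ETS core was therefore shared by the Cd3e and Cd3d windows and not found in that of Cd3g. Of the 10 genes, 7 had entries, with 10 windows in all.

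Cd3e, the epsilon chain shared by both CD3 dimers, differed more between libraries than between groups. Its level in Tert+ without RT was 104, 27.6 and 12.8 CPM in replicates 1 to 3, and in Tert- without RT 96.2, 6.56 and 14.8 CPM. After RT it was 34.9, 8.24, 7.78 and 58.8 CPM in Tert+ and 22.5, 5.06, 7.27 and 5.004 CPM in Tert-. The first replicate of both fractions without RT was high, as were replicates 1 and 4 of Tert+ after RT, and all 4 groups overlapped.

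Cd3d, the delta chain, was at 48.0, 24.8 and 8.73 CPM in Tert+ and 41.1, 5.68 and 9.66 CPM in Tert- without RT. After RT Cd3d was at 27.1, 3.88, 3.55 and 35 CPM in Tert+ and 16.3, 3.50, 3.44 and 4.4 CPM in Tert-. The same libraries were high as for Cd3e. Cd3g, the gamma chain, ranged from 15.5 to 48.5 CPM in Tert+ and from 7.45 to 62.4 CPM in Tert- without RT, and from 2.91 to 48.1 and 3.76 to 11.4 CPM after RT.

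Summed over the 3 chains, Tert+ no RT replicate 1 and Tert- no RT replicate 1 had 200.2 and 199.8 CPM, 21% each of the sum over the 14 libraries. Tert+ RT replicate 4 (142 CPM) and Tert+ RT replicate 1 (98.2 CPM) followed, and these 4 libraries together held 67.2% of it. The lowest were Tert- RT replicate 2 at 12.3 CPM and Tert+ RT replicate 2 at 15.0 CPM. Both replicates numbered 1 without RT stood high, yet same-numbered libraries are not known to share an animal.

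**Figure D1:**
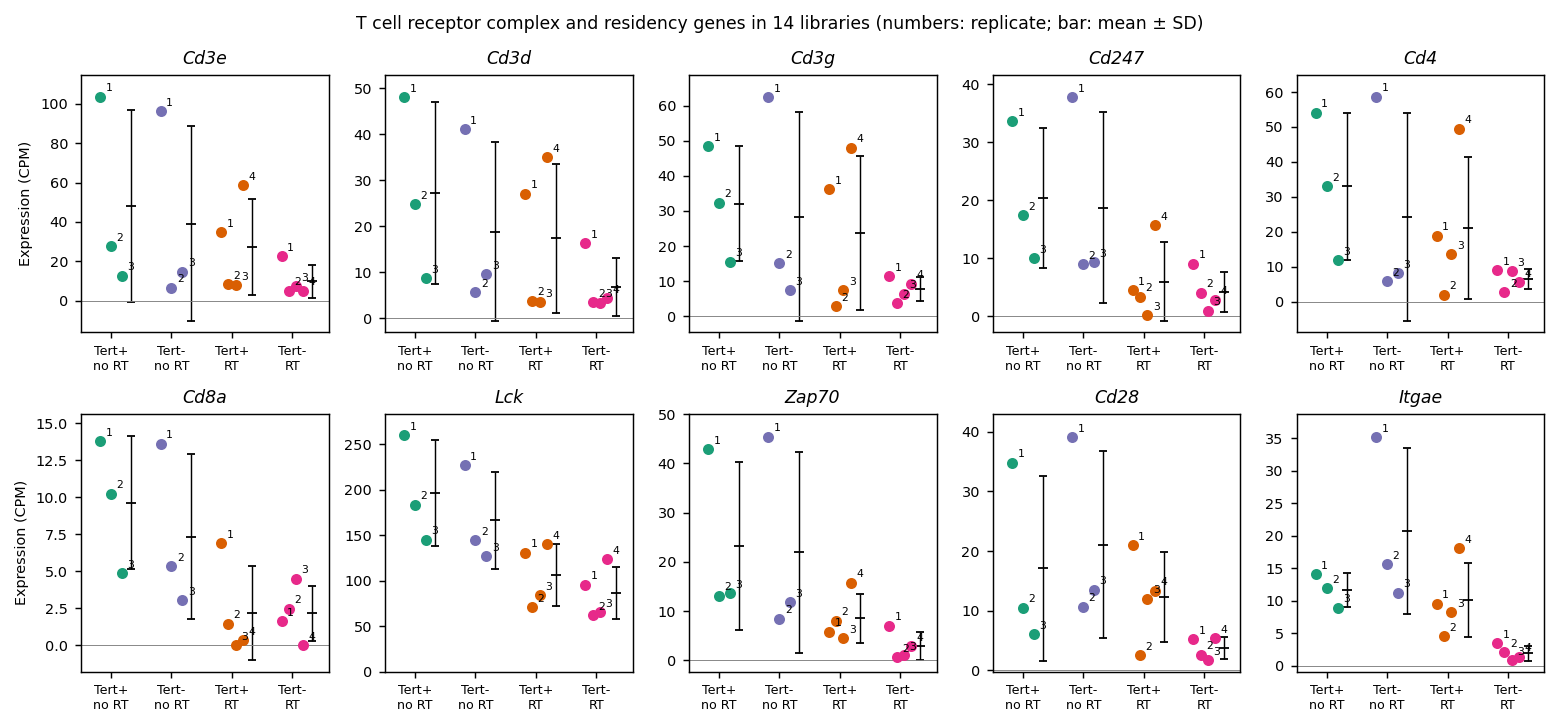
Expression in CPM (vertical axes) of the 10 genes in the 4 groups (horizontal axes); each point is a library labelled with its replicate number, and the bar is the group mean with its SD. Replicate 1 is the highest library without RT in either fraction for Cd3e and for most other genes, and Itgae in Tert- after RT lies between 0.794 and 3.45 CPM.

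Cd247 (ENSMUSG00000005763, chromosome 1, 165788681 to 165877277) encodes the zeta chain. It was at 33.6, 17.45 and 10.02 CPM in Tert+ and 37.8, 9.003 and 9.34 CPM in Tert- without RT. After RT Cd247 was at 4.44, 3.395, 0.1365 and 15.7 CPM in Tert+ and 9.07, 4.02, 0.926 and 2.85 CPM in Tert-. Its exons share 3007 bases with Pou2f1 on the opposite strand, and whether counting used strand is not given in the sources used here. Pou2f1 had group means between 39.0 and 52.8 CPM, with 28.5 CPM in its lowest library, and did not show the low levels of Cd247 after RT.

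Cd4 (ENSMUSG00000023274, chromosome 6, 124864692 to 124888221), the coreceptor of helper T cells, followed the CD3 genes. It was at 54.1, 33 and 11.99 CPM in Tert+ and 58.7, 5.94 and 8.29 CPM in Tert- without RT. After RT Cd4 was at 18.9, 2.101, 13.65 and 49.5 CPM in Tert+ and 9.07, 2.72, 8.73 and 5.69 CPM in Tert-.

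Cd8a (ENSMUSG00000053977, chromosome 6, 71373427 to 71379173), the coreceptor of cytotoxic T cells, was the sparsest member. It was at 13.8, 10.2 and 4.86 CPM in Tert+ and 13.6, 5.33 and 3.04 CPM in Tert- without RT. After RT Cd8a had 79, 9, 0 and 4 counts in Tert+ and 9, 19, 34 and 0 counts in Tert-. The 2 libraries with 0 counts allow up to 0.409 CPM in Tert+ RT replicate 3 and 0.259 CPM in Tert- RT replicate 4, by the limit of 3 counts, which covers counting error only. Cd8b1, the other chain of the CD8 dimer, had 0 to 74 counts per library in Tert+ and 3 to 56 in Tert- after RT, and at most 40.6 CPM without RT.

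The balance of the coreceptors was uneven between libraries. Per kilobase of gene length, Cd4 was between 0.997 and 131 times Cd8a in the 12 libraries with a Cd8a count, with a median ratio of 2.47. The highest ratio came from Tert+ RT replicate 4, which held 579 counts of Cd4 and 4 of Cd8a.

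Lck (ENSMUSG00000000409, chromosome 4, 129548344 to 129573641) was the most abundant member in every library. It was at 260, 183 and 145 CPM in Tert+ and 227, 145 and 127 CPM in Tert- without RT. After RT Lck was at 131, 70.8, 84.3 and 140.3 CPM in Tert+ and 95.8, 62.0, 65.6 and 123 CPM in Tert-. In each fraction, all libraries after RT were below all libraries without RT.

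Lck differed from the other members in its small spread. Its highest library was 4.19 times its lowest, where Cd3e spanned 20.7 times, Cd3g 21.5 times and Zap70 70.0 times. The SD of log2 CPM between libraries of a group was 0.456 for Lck and 1.48 for Cd3e; over the 10 members it had a median of 1.37, and over all 15915 tested genes 0.559. Per kilobase, Lck was between 3.28 and 34.3 times Cd3e, lowest in Tert- no RT replicate 1 and highest in Tert- RT replicate 4. Where Cd3e was low, Lck was thus not proportionally low. B cell markers were high throughout and some mouse B cells are known to carry Lck; their part in its level was not tested.

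**Figure D2:**
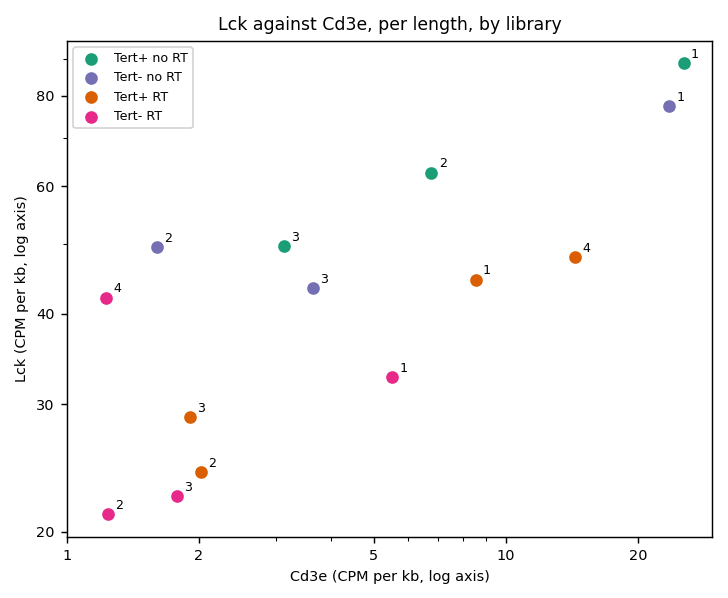
Lck against Cd3e in CPM per kilobase of gene length, both axes logarithmic; each point is 1 of the 14 libraries, coloured by group and labelled with its replicate number. Lck varies far less than Cd3e, with the ratio of Lck to Cd3e between 3.28 and 34.3.

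RefSeq gives Lck a pair of start sites, known as the distal and the proximal promoter, and counts per gene cannot assign reads to either. They are printed because Lck stood apart from the other members. The upstream window is chr4:129573592-129573891 and the downstream one chr4:129558323-129558622, both on the minus strand of GRCm38.p6, with capitals as above.

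Lck upstream start: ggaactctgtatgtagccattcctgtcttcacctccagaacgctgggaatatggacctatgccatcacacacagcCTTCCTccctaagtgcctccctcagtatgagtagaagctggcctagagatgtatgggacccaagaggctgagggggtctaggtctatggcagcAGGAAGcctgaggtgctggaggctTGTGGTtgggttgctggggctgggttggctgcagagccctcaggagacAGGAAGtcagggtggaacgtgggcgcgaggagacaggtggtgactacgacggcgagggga
Lck downstream start: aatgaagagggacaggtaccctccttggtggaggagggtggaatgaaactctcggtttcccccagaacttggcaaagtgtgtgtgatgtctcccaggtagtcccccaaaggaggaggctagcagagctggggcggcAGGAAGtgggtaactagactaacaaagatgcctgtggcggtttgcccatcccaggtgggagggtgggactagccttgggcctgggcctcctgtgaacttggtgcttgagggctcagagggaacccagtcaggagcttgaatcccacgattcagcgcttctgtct

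The upstream window held 3 ETS cores and 1 RUNX core, and the downstream window 1 and 0. Each had 1 E-box and 0 TATA boxes.

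Zap70 (ENSMUSG00000026117, chromosome 1, 36761798 to 36782818) was at 42.9, 13.15 and 13.7 CPM in Tert+ and 45.4, 8.48 and 11.9 CPM in Tert- without RT. After RT Zap70 was at 5.84, 8.08, 4.50 and 15.7 CPM in Tert+ and 7.07, 0.649, 1.06 and 2.85 CPM in Tert-. The Tert- libraries after RT all lay below the Tert- libraries without RT, whereas the Tert+ groups overlapped.

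Cd28 (ENSMUSG00000026012, chromosome 1, 60716800 to 60773359) was at 34.8, 10.5 and 6.07 CPM in Tert+ and 39.1, 10.7 and 13.5 CPM in Tert- without RT. After RT Cd28 was at 21, 2.586, 12.01 and 13.35 CPM in Tert+ and 5.26, 2.595, 1.72 and 5.435 CPM in Tert-. Again only the Tert- groups with and without RT were separate.

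Itgae (ENSMUSG00000005947, chromosome 11, 73090583 to 73147446) was lowest in Tert- cells after RT. It was at 14.05, 11.95 and 8.88 CPM in Tert+ and 35.2, 15.65 and 11.2 CPM in Tert- without RT. After RT Itgae was at 9.497, 4.53, 8.19 and 18.05 CPM in Tert+ and 3.45, 2.08, 0.7935 and 1.38 CPM in Tert-. The 4 Tert- libraries after RT held 57 counts in all and lay below each of the other 10 libraries. Haspin lies inside Itgae on the opposite strand with 0 shared exon bases, and had 3.50 to 8.82 CPM in Tert- without RT and 4.17 to 16.1 CPM after RT.

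Per kilobase of gene length, Lck led in all 4 groups and was above the next gene by more than the larger SD of the pair. Cd3d came second in each group, at 15.0 ± 10.9 CPM per kilobase in Tert+ without RT and 3.81 ± 3.46 in Tert- after RT (SD, n = 3 and n = 4). Of the 9 neighbouring pairs in each group, only the step from Lck to Cd3d exceeded the larger SD. Itgae was last in Tert+ without RT and in Tert- after RT, and Cd8a was last in the other 2 groups.

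**Figure D3:**
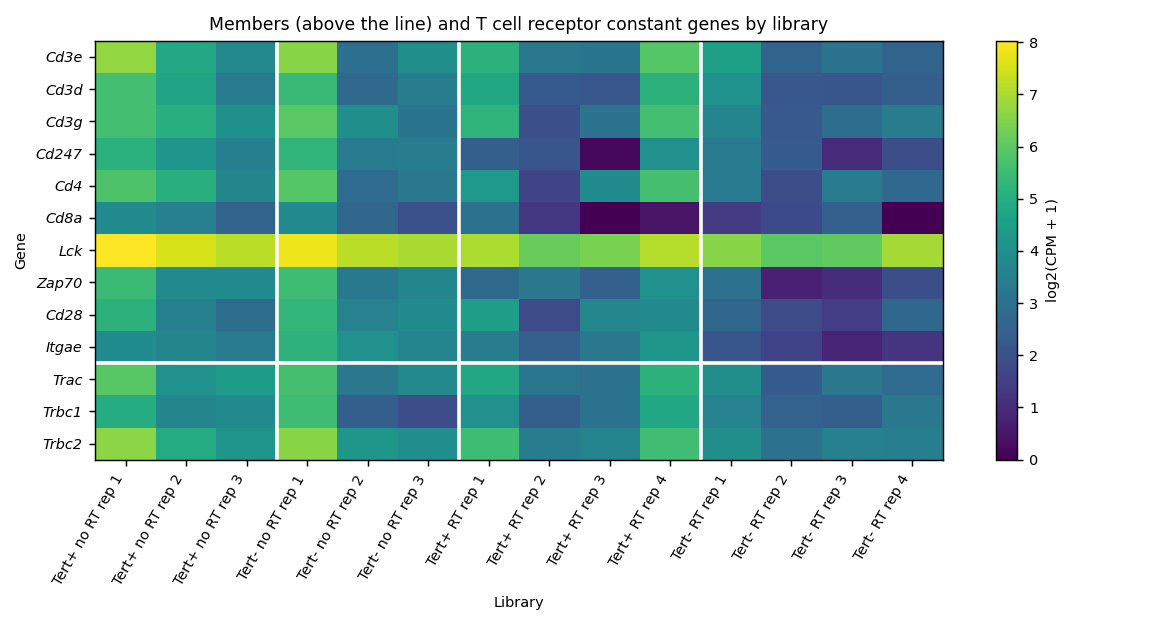
Heat map of log2(CPM + 1) for the 10 genes and for Trac, Trbc1 and Trbc2, the constant genes of the receptor's alpha and beta chains (rows), in the 14 libraries (columns, white lines between groups). The libraries with the highest CD3 sums, 200.2 and 199.8 CPM, are also bright for the constant genes, and Lck is bright in every column.

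The receptor's own chains rose and fell with CD3 across libraries. Trac and Trbc2, constant genes of the alpha and beta chains, were at 32.0 ± 24.6 and 48.1 ± 42.9 CPM in Tert+ without RT and at 8.16 ± 4.54 and 10.5 ± 3.10 CPM in Tert- after RT (SD, n = 3 and n = 4). With group means removed, the log2 CPM of Trac, Trbc1 and Trbc2 had Pearson correlations of 0.938, 0.889 and 0.96 with the mean of the 3 CD3 genes over the 14 libraries (Spearman 0.877, 0.829 and 0.93). Without the 2 libraries farthest from the median these were 0.9, 0.838 and 0.944. These values are a description, given with no p, over points that share library depth and scaling.

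Among the members, Cd4 followed the CD3 mean most closely (Pearson 0.887, Spearman 0.877), then Lck (0.846 and 0.78), Cd28 (0.804 and 0.771) and Itgae (0.803 and 0.789). Cd8a followed it least (0.347 and 0.266). Within CD3, Cd3e and Cd3d had a Pearson correlation of 0.96. Cd79a, a chain of the B cell receptor, had -0.574 and -0.376.

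Of 11719 other genes (mean log2 CPM not under 1), the 5 whose group-centred pattern was most like the mean of the 10 members were Trbc2, Cd27, Trac, Tnfrsf4 and Cd6. Their Pearson correlations over 14 libraries were 0.963, 0.938, 0.938, 0.931 and 0.929, and Spearman's were 0.925, 0.89, 0.895, 0.895 and 0.859. Without the 2 farthest libraries they were 0.943, 0.934, 0.9, 0.912 and 0.923. Cd27 and Tnfrsf4 are costimulatory receptors of the tumour necrosis factor family, and Cd6 is a surface glycoprotein of T cells. No p is given, since they were picked from all genes for their likeness.

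The first comparison was of Tert+ with Tert- cells without RT. Of the 10 members 0 passed the threshold, an adjusted p of 0.05 in edgeR's quasi-likelihood test with Benjamini-Hochberg adjustment over all tested genes; 0.0377% of tested genes were called. 0 members had an unadjusted p under 0.05, and DESeq2 and limma voom also called 0. The median log2 fold change was 0.21 over the members and 0.0075 over all genes, and 8 members were higher in Tert+ (with library totals in place of TMM, 3 were lower). The groups overlapped for all 10 members, and did not for 8.87% of genes; 4.5% had an unadjusted p under 0.05. Cd3e had a log2 fold change of 0.28 ± 1.04 (SE), and Itgae of -0.83 ± 0.58, the largest of the 10 in size.

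The second comparison was of Tert+ with Tert- cells after RT. All 10 members had higher fitted levels in Tert+, with a median log2 fold change of 1.54 against -0.0041 over all genes, and 0 passed the threshold (0.0126% of genes called). Of the 10, 3 had an unadjusted p under 0.05 (7.39% of genes). The mean of Itgae was 10.1 ± 5.72 CPM in Tert+, with 1.92 ± 1.14 CPM in Tert- (SD, n = 4 for both), and was the 1 member whose groups did not overlap, as for 4.88% of genes (2.43% higher in Tert+). Its log2 fold change was 2.41 ± 0.545 (SE; adjusted p = 0.308 by edgeR), and DESeq2 alone called it. Zap70 and Cd28 had log2 fold changes of 1.59 ± 0.73 and 1.71 ± 0.67 (SE; adjusted p = 0.673 and 0.619 by edgeR). Cd4 was at 21.1 ± 20.3 against 6.55 ± 2.97 CPM and Cd3e at 27.4 ± 24.4 against 9.96 ± 8.42 CPM, and in each case the SD of the Tert+ libraries was larger than the difference.

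The third comparison was of RT with no RT in Tert+ cells, and here too 0 of the 10 members passed by edgeR, against 1.98% of genes called (0.873% lower). All 10 had lower fitted levels after RT, with a median log2 fold change of -0.72 against -0.0013 over all genes. Lck went from 196 ± 58.3 to 106.5 ± 34.1 CPM (SD, n = 3 and n = 4), with a log2 fold change of -0.88 ± 0.30 (SE; adjusted p = 0.141 by edgeR). It was the 1 member with an unadjusted p under 0.05 (18% of genes) and the 1 whose groups did not overlap (15.5% of genes, 8.25% lower). DESeq2 and limma voom called 0 members. Itgae had a log2 fold change of -0.20 ± 0.54.

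In Tert- cells RT was followed by lower levels of Itgae, which fell by 3.45 ± 0.58 on the log2 scale (SE; adjusted p = 0.0146 by edgeR), from 20.7 ± 12.75 to 1.92 ± 1.14 CPM (SD, n = 3 and n = 4). It was lower in 4 of 4 libraries than in any of the 3 without RT. Itgae was 1 of 10 members called, where 1.62% of genes were called and 0.804% were called lower. Leaving out replicate 3 of that group gave Itgae an adjusted p of 0.056 by edgeR, and 0 calls. The median log2 fold change of the members was -1.95 against -0.016 over all genes, and all 10 were lower. Zap70, Cd28 and Lck were also without overlap, so 4 of 10 members had separate groups, as 18.9% of genes did (9.22% lower), but these 3 did not pass by edgeR. Their log2 fold changes were -2.94 ± 0.79, -2.49 ± 0.71 and -0.94 ± 0.30 (SE; adjusted p = 0.0668, 0.0808 and 0.107 by edgeR). DESeq2 called 4 members, these 3 and Itgae. Of the 10, 7 had an unadjusted p under 0.05, against 18.8% of genes.

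**Figure D4:**
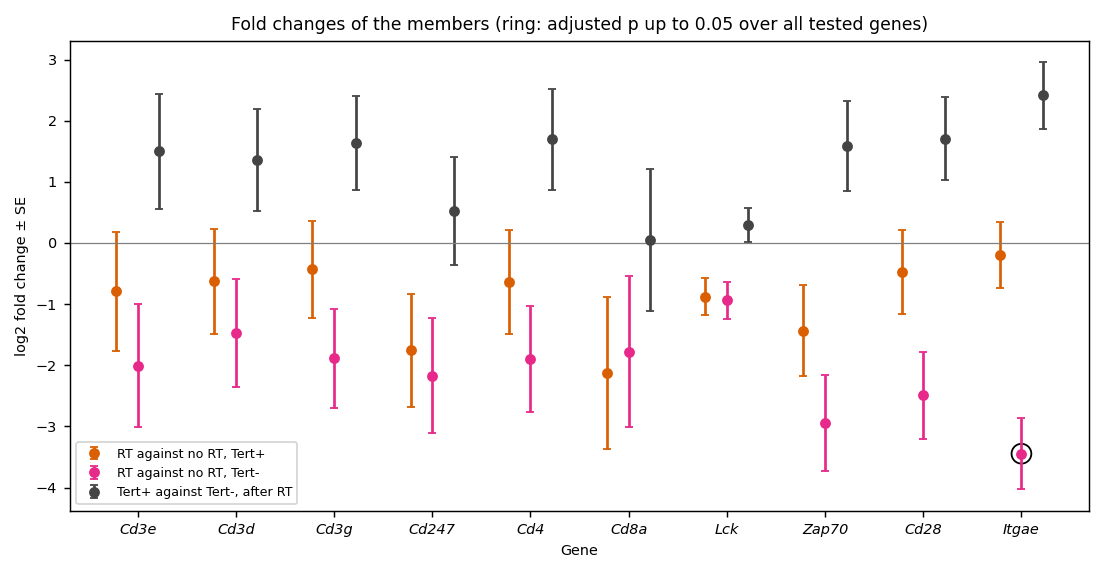
Log2 fold change with its SE (vertical axis) of each of the 10 genes (horizontal axis) for RT against no RT in Tert+ and in Tert- cells and for Tert+ against Tert- after RT; a ring marks an adjusted p up to 0.05 over all tested genes. Only Itgae in Tert- cells carries a ring, at -3.45, and the RT comparisons share no libraries with each other but each shares some with the third.

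The difference of the RT effect between Tert+ and Tert- cells was tested as an interaction, in which edgeR called 0 of 15915 genes, with 3.63% at an unadjusted p under 0.05. For Itgae the difference was 3.25 ± 0.80 on the log2 scale (SE; unadjusted p = 0.00094, adjusted p = 1 by edgeR), and of the 10 members 1 had an unadjusted p under 0.05. DESeq2 called Itgae here and limma voom called 0 members. The Itgae call in Tert- cells is therefore not shown by edgeR to differ from the change in Tert+ cells.

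Averaged over both fractions, RT was followed by lower Lck, Zap70 and Itgae. Lck fell by 0.91 ± 0.21, Zap70 by 2.19 ± 0.54 and Itgae by 1.82 ± 0.39 on the log2 scale (SE; adjusted p = 0.0121, 0.0161 and 0.00769 by edgeR). These were 3 of 10 members, where 13.4% of tested genes were called and 7% were called lower. All 3 kept their calls in each of the 14 leave-outs, and 5 members passed without Tert+ RT replicate 1. DESeq2 called 5 members and limma voom 5, the same 3 among them in both. Of the 10, 6 had an unadjusted p under 0.05 (28.9% of genes). Cd28 and Cd247 came next (adjusted p = 0.0583 and 0.0616 by edgeR), and the CD3 genes had log2 fold changes of -1.40 ± 0.69, -1.05 ± 0.62 and -1.16 ± 0.56 for Cd3e, Cd3d and Cd3g (SE), which did not pass. Groups pooled over both fractions overlapped for all 10 members, and did not overlap for 3.15% of genes. Itgae had log2 fold changes of -3.45 ± 0.58 in Tert- and -0.20 ± 0.54 in Tert+ (SE). Its average thus came mostly from the Tert- cells.

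Tert+ against Tert- averaged over both radiation states gave 0 of 10 members called, against 0.22% of genes. Here 0 had an unadjusted p under 0.05 (8.24% of genes), and DESeq2 and limma voom called 0. All 10 were higher in Tert+ by fitted level, with a median log2 fold change of 0.81 against 0.0028 over all genes.

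Further genes of the receptor pathway were taken from lists, with the pooled RT comparison given first. The share of all genes called there, 13.4% with 7% lower, is the background for each list count that follows. Of 20 proximal signalling genes 4 fell, 1 rose and 15 did not pass, with a median log2 fold change of -0.55 against -0.0099 over all genes. Lcp2, the adaptor SLP-76, fell by 1.33 ± 0.39, Vav1, an exchange factor, by 0.40 ± 0.08 and Rasgrp1, a Ras activator, by 0.42 ± 0.12 on the log2 scale (SE; adjusted p = 0.0338, 0.00729 and 0.0312 by edgeR). The remaining gene of the 4 to fall was Cd2, by 0.41 ± 0.13 (SE; adjusted p = 0.0462 by edgeR). Cd2 was also the 1 of 9 T cell markers called in this comparison, and all 9 were lower by fitted level. Ptpn22, a phosphatase that restrains Lck, rose by 0.87 ± 0.15 (adjusted p = 0.00281 by edgeR). In Tert- cells alone Vav1 fell and Ptpn22 rose, and in Tert+ cells alone 0 of the 20 passed. Vav1, Rasgrp1 and Ptpn22 also work in B cells.

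Of 4 receptor constant genes matched by symbol from 7 listed, all 4 were lower after RT by fitted level and 0 passed. Trbc2 had a log2 fold change of -1.39 ± 0.51 and Trac of -1.13 ± 0.49 (SE; adjusted p = 0.0823 and 0.14 by edgeR). Of 12 costimulation and checkpoint receptors all 12 were lower by fitted level, 1 fell and 11 did not pass, a count near the 7% of all genes called lower. Lag3, an inhibitory receptor for class II molecules, fell by 2.35 ± 0.61 (SE; adjusted p = 0.0202 by edgeR). It had 0 to 29 counts per library in Tert- after RT against 65 to 352 without RT.

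Of 5 ligands of the CD28 family 2 rose after RT in the pooled comparison and 3 did not pass. Cd274, which encodes PD-L1, rose by 1.19 ± 0.17 and Cd86 by 0.96 ± 0.23 on the log2 scale (SE; adjusted p = 0.00106 and 0.0145 by edgeR). Cd274 rose in each fraction on its own, from 107 ± 36.3 to 242 ± 27.1 CPM in Tert+ and from 115 ± 36.4 to 266 ± 40.7 CPM in Tert- (SD, n = 3 and n = 4). Cd80, the other ligand of CD28, stayed at or below 6.26 CPM in every library, with means of 1.29 and 2.56 CPM without RT and 0.832 and 0.479 CPM after RT in Tert+ and Tert-.

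Of 12 genes on the tissue residency list 11 were tested, 2 fell with RT in the pooled comparison and 9 did not pass, where 13.4% of all genes were called and 7% were called lower. Itgb7, the partner chain of Itgae, fell by 0.66 ± 0.13 and Ccr9, a homing receptor, by 1.61 ± 0.48 on the log2 scale (SE; adjusted p = 0.00469 and 0.0365 by edgeR). Itgb7 was at 424 ± 53.8 and 252 ± 48.3 CPM in Tert- without and after RT (SD, n = 3 and n = 4), above the 35.2 CPM that Itgae reached at most, and B cells also carry it. Cd69, an early activation and retention marker, was at 295 ± 109 and 353 ± 29.9 CPM in the same groups and did not pass. Cdh1, the E-cadherin that Itgae binds, was at 41.0 ± 8.06 and 32.35 ± 13.4 CPM. Zfp683, a residency factor, had 1 count in the 14 libraries.

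Of 7 recirculation genes 1 fell and 6 did not pass, where 13.4% of all genes were called and 7% were called lower. The 1 was Klf2, which fell by 0.48 ± 0.15 on the log2 scale (SE, adjusted p = 0.0477 by edgeR). Of 13 cytotoxic effector genes 3 fell, Nkg7, Eomes and Gzma, and 10 did not pass. Nkg7, a granule protein, fell by 1.67 ± 0.35 and Gzma, a granzyme, by 1.17 ± 0.37 (SE; adjusted p = 0.00708 and 0.0494 by edgeR). Eomes, a transcription factor of cytotoxic lymphocytes, had 153 counts in Tert+ without RT and 0 in Tert+ after RT, and 74 and 39 in Tert-. Of 10 tested helper and regulatory genes 1 fell, Bcl6, by 0.98 ± 0.14 (SE; adjusted p = 0.00106 by edgeR), a repressor shared by follicular helper T cells and germinal centre B cells. Of 6 lineage factors 1 rose, Satb1, by 1.1 ± 0.26 (adjusted p = 0.0123 by edgeR). By fitted level 3 of the 6 were higher and 3 lower. Satb1 had a mean of 635 CPM over the libraries, and which cells gave its RNA was not tested.

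Some markers of other cells that can carry members also passed in the pooled RT comparison, in which 13.4% of all genes were called. All 6 natural killer and innate lymphoid markers were lower by fitted level in the pooled comparison and 2 fell, Eomes and Tyrobp. Their sum was 134.1 to 188 CPM in Tert+ and 136 to 247 CPM in Tert- without RT, and 56.1 to 115 CPM and 33.4 to 105 CPM after RT, with Eomes at 0 in Tert+ after RT. The largest part of this sum was Tyrobp, with means of 112 and 143 CPM in Tert+ and Tert- without RT. After RT its means were 72.0 and 54.8 CPM. Of 9 dendritic cell markers 6 were lower and 3 higher by fitted level, and 3 fell, Flt3, Cd209a and Siglech. Their sum was 430.2 to 523 CPM in Tert+ and 342 to 599.8 CPM in Tert- without RT. After RT it was 332 to 573 CPM and 337 to 481 CPM. Wdfy4 was the largest part of it, with means of 306 and 281 CPM without RT and 320 and 367 CPM after RT.

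In Tert- cells alone 0 of the 9 dendritic cell markers passed, with 7 lower and 2 higher by fitted level. Siglech, a plasmacytoid dendritic cell receptor, was at 4.31 to 25.8 CPM in Tert- after RT against 57.5 to 120 CPM without RT. Flt3 was at 1.85 to 5.95 against 5.35 to 42.7 CPM, and Ccr9, of the residency list, at 0.13 to 2.54 against 4.20 to 19.4 CPM (adjusted p = 0.0808, 0.0521 and 0.0615 for Siglech, Flt3 and Ccr9 by edgeR). Wdfy4, also on the dendritic list, was at 292 to 458 against 226 to 333 CPM, and Zbtb46 at 0.7935 to 9.6 against 2.2 to 12.3 CPM. Cd209a was at 0.519 to 5.44 against 5.07 to 48.7 CPM. Which cells gave the Wdfy4 RNA was not tested. Xcr1 and Clec9a, markers of 1 type of dendritic cell known to carry Itgae, were at or below 2.502 and 3.23 CPM in every library. Batf3, also on the dendritic list, was at 0 to 1.45 CPM in Tert- after RT against 2.27 to 7.24 CPM without RT. All 8 macrophage markers were lower by fitted level in Tert+ than in Tert-, averaged over both radiation states. Of the 8, 5 passed there, C1qc among them, where 0.22% of all genes were called. In Tert- cells alone all 8 macrophage markers were lower by fitted level after RT, and 0 passed. Their sums there were 1450 to 1822 CPM without and 226 to 1090 CPM after RT. In the pooled RT comparison 5 of the 8 were higher and 3 lower by fitted level. Of these only Csf1r passed, falling by 1.81 ± 0.40 on the log2 scale (SE, adjusted p = 0.0112 by edgeR). The 7 B cell markers had 0 past the threshold in these RT comparisons. What part these cells had in the members' levels was not tested.

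**Figure D5:**
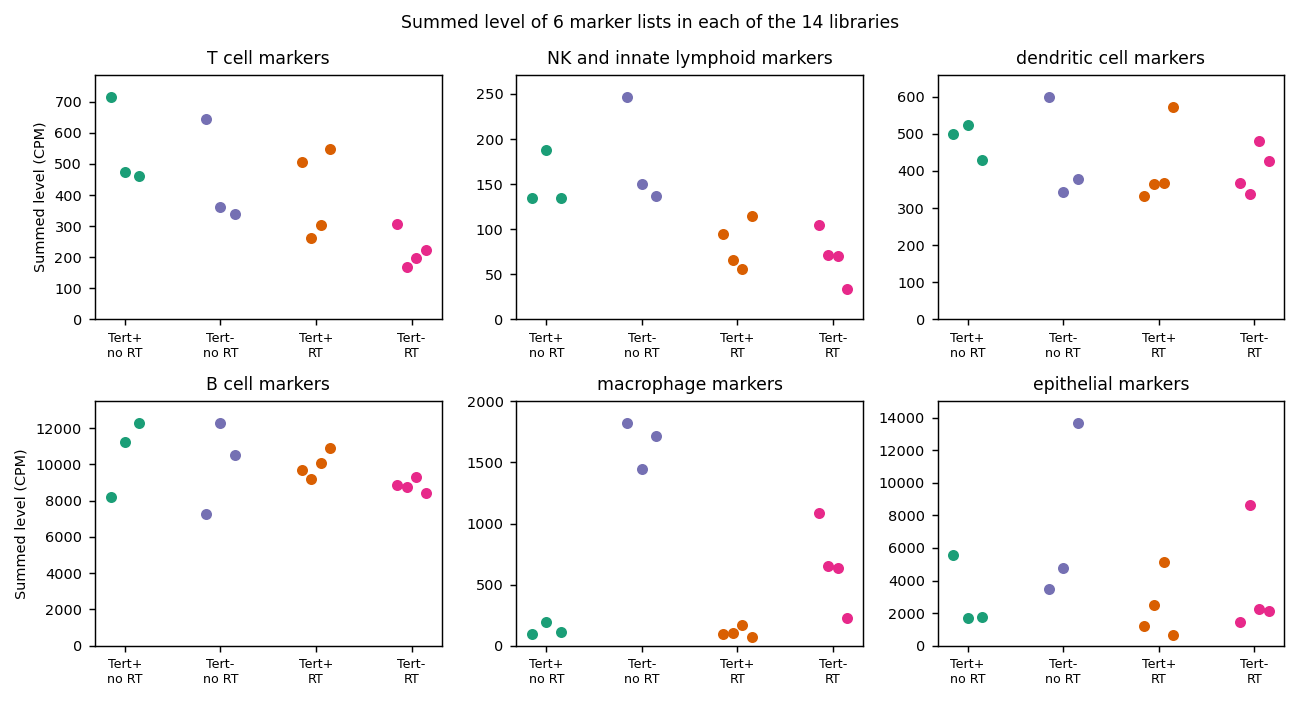
Summed level in CPM (vertical axes) of 6 marker lists in the 4 groups (horizontal axes); each point is a library. The natural killer list lies at 134.1 CPM or above without RT and at 115 CPM or below after RT. Tyrobp is the largest part of it, and the B cell list stays between 7284 and 12280 CPM.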

How the data were processed

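The deposited table holds raw counts of reads per gene for 14 libraries made from 1 ng of RNA each, 1 column per library, not normalised. Reads were aligned with HISAT2 to mm10, per the submitters' processing notes; versions, the counting program and strand handling are not given in the sources used here. Gene lengths and positions are those of the table, and all 10 members had the same coordinates in GENCODE M21 (GRCm38).

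The model for the counts used edgeR 4.0.16 under R 4.3.3: filterByExpr on the 4 groups, TMM scaling, 1 term per group over all 14 libraries, robust quasi-likelihood F tests (two-sided) and Benjamini-Hochberg adjustment over 15915 genes, with a threshold of 0.05. There were 7 comparisons. Standard errors are the log2 fold change divided by the root of F. CPM per kilobase divides by the table's gene length. Alternatives used DESeq2 1.42.0, limma 3.58.1 and other settings. The fit was checked on simulated counts.

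The members and lists were chosen with earlier results of these data known. Named were all members; per list up to 4 genes past the threshold in any comparison, or the 2 with the highest mean; and the 5 genes most like the members. Cd69, Cdh1, Cd80, Cd8b1, Xcr1, Clec9a, Batf3, Wdfy4, Zbtb46, Zfp683, Trbc1, Haspin and Pou2f1 fall outside that rule and were named after their values were seen. Replicates of a group differed by at least 21.7 times counting noise (chi-square per degree of freedom) in all 18 pairs. No paired analysis is the main one: same-numbered libraries had correlations of deviations from -0.049 to 0.119, over 0.1 in 2 of 7 pairs.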

Additional observations from a re-analysis of the deposited data

Results flagged for a closer look

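Cd3e and Cd3d were each flagged because 1 library lay far from the other 3 of its group, by the gap to its nearest neighbour over the group's range. Both flags fell on Tert- RT replicate 1, where Cd3e was at 22.5 CPM against 7.27 CPM in the next library and Cd3d at 16.3 against 4.4 CPM. They were 2 of 20 groups examined, of which chance flags about 1 in 20, and the genes are not independent. The check was run on groups of 4 libraries only, so the groups without RT were not examined. Tert- RT replicate 1 was also the shallowest library, with 5520412 counts.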

How the results depend on the processing

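Of the counts of members called, the count for Tert+ against Tert- without RT and that averaged over both radiation states stayed at 0 under every alternative run. DESeq2 moved 4 counts: to 1 for Tert+ against Tert- after RT, to 4 for RT in Tert-, to 1 for the interaction and to 5 for pooled RT. limma voom moved the pooled RT count to 5. With the replicate number as a block, the count was 1 for RT in Tert+ (Lck), 4 for RT in Tert- (Lck, Zap70, Cd28 and Itgae) and 7 for pooled RT. This block also joins libraries without RT to libraries after RT by replicate number, and these are not known to share an animal. The correlation check compared Tert+ with Tert- libraries within a treatment only, so it does not bear on that link. Nor does the check settle whether the numbers pair Tert+ with Tert- libraries. In it 4 of 7 Tert+ libraries correlated best with their own number, but no same-numbered correlation exceeded 0.119. Column numbers of same-numbered Tert+ and Tert- libraries were consecutive, such as 1 and 2 for replicate 1 without RT. The cause of the moved counts was not tested. Leaving out each library in turn gave 0 to 1 for RT in Tert- and 3 to 5 for pooled RT. RLE factors, library totals, no filter, and leaving out Tert+ RT replicates 3 and 4 together (chosen after seeing the data) moved no count past 1.5 times. Nor did fitting only the groups compared, which was not run for the interaction or the pooled comparisons. The pairing within treatment moved no count either. It was run for Tert+ against Tert- and the interaction only, so it did not examine the RT calls. Scaling by RLE factors or library totals shifted the median of all genes by at most 0.08 on the log2 scale, and all 10 members stayed lower after RT in either fraction. Of the called values, 0 changed direction. Cd8a had 0 counts in 2 libraries, which allow levels up to 0.409 and 0.259 CPM by the limit of 3 counts.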
